A study of Homo sapiens with 2 samples.

Results

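HDAC1, HDAC2 and HDAC3 encode class I histone deacetylases, the class that romidepsin inhibits, and HDAC6 encodes a class II deacetylase that the drug largely spares. These 4 genes were taken by their symbols in the array annotation, and all 4 were found among the 14884 named genes of the table. They were measured in SNK6, a human line from an NK/T-cell lymphoma that carries Epstein-Barr virus. All cells were kept in RPMI-1640 with 10% heat-inactivated serum and 500 U/ml interleukin-2 and received romidepsin for 72 h. One culture received romidepsin together with sildenafil, a phosphodiesterase inhibitor (1 array, called the combination), and the other received romidepsin without it (1 array). Because both cultures carried romidepsin, an effect of romidepsin itself on these genes cannot be read from the arrays, and no untreated cells were analysed here. The labels give no doses, and the combination culture was identified from the short form of a second drug in its title.

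Histone deacetylases remove acetyl groups from lysines and thereby close chromatin or change the activity of other proteins. HDAC1 and HDAC2 are closely related nuclear enzymes that work inside the SIN3, NuRD, CoREST and MiDAC corepressor complexes, while HDAC3 works in the NCoR complex. HDAC6 sits mainly in the cytoplasm, where it deacetylates alpha-tubulin, cortactin and the chaperone HSP90 and binds ubiquitin. Romidepsin is a prodrug whose reduced thiol binds the zinc ion in the active site. It acts on the enzyme and not on its transcript, so a transcript level is no measure of deacetylase activity.

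The 200 bases before each annotated start are given to show how the 4 promoters differ in base composition and promoter elements. Which starts these cells use, and how they relate to the array signals, was not tested. In mouse cells the promoter of the HDAC1 counterpart is known to respond to deacetylase inhibitors through GC boxes and a CCAAT box. The sequences are from RefSeq on GRCh38.p14 and run 5′ to 3′ on the strand of the gene. Capitals mark matches to the GC box (GGGCGG), the CCAAT box (CCAAT) or the TATA box (TATAAA) on either strand, searched by letters alone. For HDAC6 the table holds 3 starts, and the first listed is shown.
HDAC1 (chr1:32291883-32292082, plus strand): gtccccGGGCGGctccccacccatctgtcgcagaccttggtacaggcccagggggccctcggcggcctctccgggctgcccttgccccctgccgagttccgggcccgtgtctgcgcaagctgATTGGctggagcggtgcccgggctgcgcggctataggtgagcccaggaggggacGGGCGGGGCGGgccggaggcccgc
HDAC2 (chr6:113971149-113971348, minus strand): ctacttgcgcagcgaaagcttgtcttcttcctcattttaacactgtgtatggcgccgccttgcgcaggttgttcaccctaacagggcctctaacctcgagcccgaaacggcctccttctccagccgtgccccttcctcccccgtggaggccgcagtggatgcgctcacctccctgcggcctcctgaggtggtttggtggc
HDAC3 (chr5:141636850-141637049, minus strand): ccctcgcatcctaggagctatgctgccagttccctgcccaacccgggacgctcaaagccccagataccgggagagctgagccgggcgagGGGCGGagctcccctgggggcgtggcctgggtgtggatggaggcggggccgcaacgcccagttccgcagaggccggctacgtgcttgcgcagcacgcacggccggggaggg
HDAC6 (chrX:48801867-48802066, plus strand): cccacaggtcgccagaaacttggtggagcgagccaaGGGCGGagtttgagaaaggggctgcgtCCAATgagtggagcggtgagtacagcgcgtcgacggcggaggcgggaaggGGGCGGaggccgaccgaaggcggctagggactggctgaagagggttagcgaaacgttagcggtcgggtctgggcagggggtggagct
HDAC1 had 3 GC box matches, of which those 24 and 19 bases before the start overlap, and 1 CCAAT match on the opposite strand. HDAC3 had 1 GC box match and no CCAAT match. HDAC6 had 2 GC box matches and 1 CCAAT match at the first listed start, 1 and 0 at the second, and 2 and 2 at the third. The HDAC2 window held none of the 3 letter strings. Over all 35116 promoter windows of the same length, 40.1% held a GC box, 28.0% a CCAAT box and 8.59% a TATA box. The GC content was 76.0% for HDAC1, 61.5% for HDAC2, 72.0% for HDAC3 and 66.0%, 51.5% and 65.5% for the 3 starts of HDAC6, against a median of 59.0% over all windows. A letter match is a description of the window and does not show that a factor binds there.

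Values are log2 signals of probe sets as deposited, and the difference is the combination minus romidepsin. With 1 array in each group there is no replicate error, no test was possible, and each difference describes these arrays. The signals ran from 0.79 to 12.97 on the combination array and from 0.93 to 13.05 on the romidepsin array, with medians of 3.92 and 3.89. Any batch and the addition of sildenafil cannot be told apart. The lineage label was checked against markers. Of 14 NK and T markers 7 were named, and all 7 passed the signal filter on at least 1 array, from GNLY (3.92 in the combination and 3.82 with romidepsin) to perforin, PRF1 (8.81 and 8.83). Of 6 monocyte markers, all named, 3 passed the filter, with CD68 the brightest (6.61 and 6.72) and LYZ the dimmest (2.24 and 2.17). Of 7 fibroblast and epithelial markers 5 were named and 3 passed, with the keratin KRT18 the brightest (7.38 and 7.04) and DCN the dimmest (2.18 and 2.08). Of 6 B cell markers only PAX5 and BLK were named, with signals between 5.05 and 5.23, and 2 of 2 passed. Of all 14884 named genes 10081 passed, so passing the filter does not by itself tell lineages apart.

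HDAC1, the brightest of the 4, had a signal of 8.09 in the combination and 8.16 with romidepsin. It ranked 1010th and 977th of the 14884 named genes, so 93.2% and 93.4% of named genes were dimmer. HDAC3, the catalytic subunit of the NCoR complex, had a signal of 7.37 in the combination and 7.45 with romidepsin. Its ranks were 1904 and 1834, with 87.2% and 87.7% of named genes dimmer. Both genes were among the brighter signals on both arrays.

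HDAC2, the close relative of HDAC1, had a signal of 5.99 in the combination and 6.00 with romidepsin, at ranks 4566 and 4593. These values come from the brighter of its 2 named probe sets. The dimmer one read 2.82 and 2.80, below the filter level of 3.91 on both arrays, and averaging both would place HDAC2 above only 44.3% and 45.3% of named genes in place of 69.3% and 69.1%. The dimmer probe set may not measure HDAC2. By identifier, 0 of its 10 nearest named neighbours share both chromosome and strand with HDAC2, against 9 of 10 for the brighter one. In the array annotation, however, the dimmer one carries a coding transcript record and the brighter one a non-coding record. Which of the 2 measures HDAC2 was not tested. The difference between the arrays was near 0 with either.

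HDAC6 had a signal of 4.58 in the combination and 4.81 with romidepsin. It ranked 7839th and 7119th, close to the middle of the named genes, with 47.3% and 52.2% dimmer. Its signal exceeded the filter level by 0.67 in the combination and by 0.90 with romidepsin. Of the 4 genes, each taken by its brightest probe set, it was the dimmest and the one with the largest change of rank, 720 places, against 33 for HDAC1, 70 for HDAC3 and 27 for HDAC2. The 500 other named genes of closest mean signal lay between 4.60 and 4.78 for HDAC6 and between 5.87 and 6.11 for HDAC2. For HDAC3 they lay between 7.25 and 7.57 and for HDAC1 between 7.89 and 8.37. Genes were thus packed most closely around HDAC6. HDAC6 also had the largest difference between the arrays of the 4 genes, -0.23, against -0.01 for HDAC2. How much each of these adds to the change of rank was not tested.

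**Figure D1:**
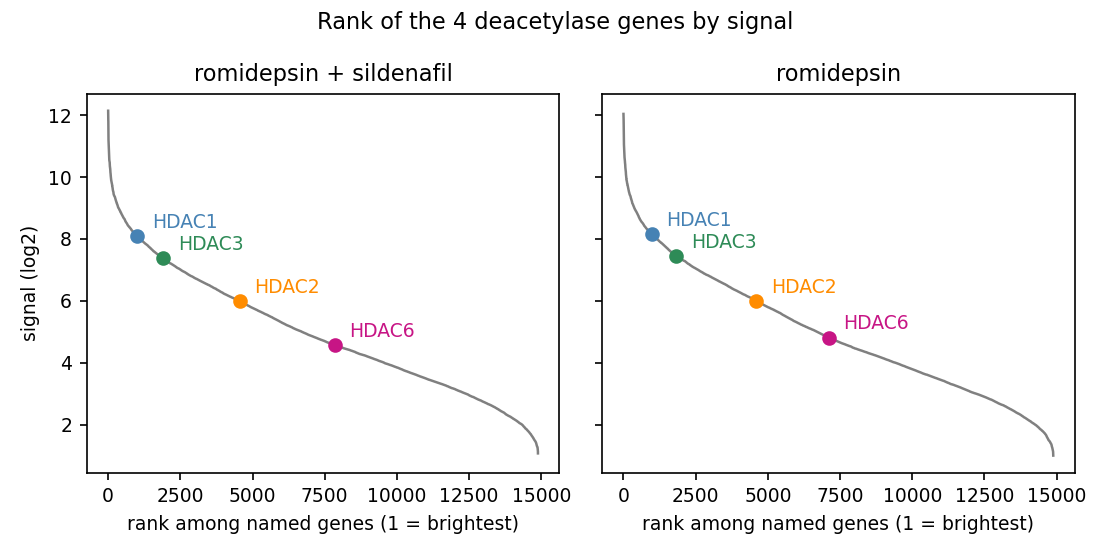
Signal (log2, vertical axis) against rank among the 14884 named genes (horizontal axis, 1 is the brightest) on the combination array (left) and the romidepsin array (right), 1 array each. The grey line joins all named genes, and coloured points mark HDAC1 (ranks 1010 and 977), HDAC3 (1904 and 1834), HDAC2 (4566 and 4593) and HDAC6 (7839 and 7119).

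The order HDAC1, HDAC3, HDAC2, HDAC6 was the same on both arrays. With probe sets averaged the last places change over, and HDAC2 stood above 44.3% and 45.3% of named genes against 47.9% and 52.8% for HDAC6. The gaps between neighbours in that order were 0.72, 1.39 and 1.41 in the combination and 0.71, 1.46 and 1.19 with romidepsin. Each gap was larger than the difference of any of the 4 genes between the arrays. Signals of different probe sets also depend on how well their probes bind, so this is an order of array signal and not of transcript number.

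None of the 4 genes differed by 1.5-fold between the arrays, the size used here to call a difference. Of the 10081 named genes whose brighter array reached the filter level of 3.91, the median of all deposited values, 1.99% differed by that much, 1.02% higher and 0.972% lower. All 4 genes were past this filter on both arrays. A count of 0 among 4 genes is near that background and is not a result about them.

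The class I genes were nearly equal on both arrays. HDAC1 differed by -0.07, HDAC2 by -0.01 and HDAC3 by -0.08. As folds, the combination stood at 0.953 of the romidepsin signal for HDAC1, 0.992 for HDAC2 and 0.945 for HDAC3. A difference of 0.1 or less in either direction was common, since 43.1% of the 10081 genes lay within it.

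HDAC6 differed by -0.23, at 0.852 of the romidepsin signal. All 4 differences were below 0, in a background where 52.4% of genes past the filter were lower in the combination. The sign of HDAC2 turned under scaling: it was 0.03 after quantile normalization and 0.02 after lowess centring. HDAC1, HDAC3 and HDAC6 remained below 0 under each of the 3 scalings tried.

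Genes of low signal scattered more between the arrays, so each gene was set beside the 500 other named genes of closest mean signal. Among those of HDAC1 the SD of the differences was 0.13, and 53.6% differed by at least as much as HDAC1 in either direction. For HDAC3 the SD was 0.14 and the share 51.8%, and for HDAC2 the SD was 0.21 and the share 96.0%. For HDAC6 the SD was 0.25 and the share 34.0%. Measured from 0, the HDAC6 difference was smaller than 1 SD of genes as bright as itself. The median difference of those genes was 0.03, on the other side of 0, and HDAC6 lay slightly more than 1 SD from it. Of its 500 neighbours 69 were lower still. The larger value of HDAC6 than of the class I genes was not tested, and without replicates it cannot be.

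**Figure D2:**
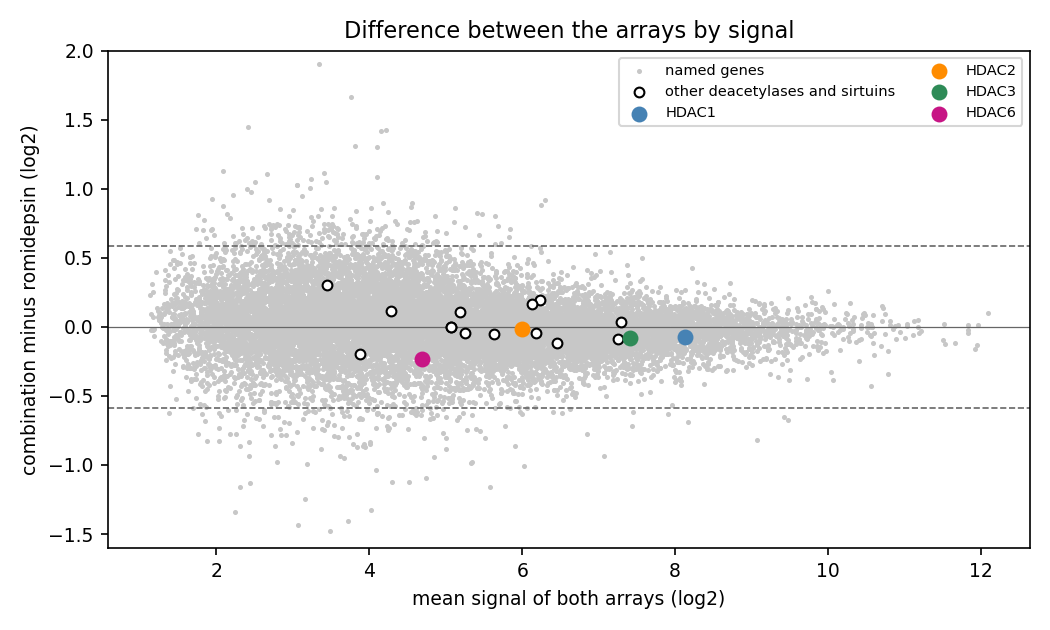
Difference between the arrays (combination minus romidepsin, log2, vertical axis) against the mean signal of both arrays (log2, horizontal axis) for all 14884 named genes in grey, the 14 other deacetylases and sirtuins as open circles and the 4 genes in colour. Dashed lines mark 1.5-fold, and HDAC1 (-0.07), HDAC2 (-0.01), HDAC3 (-0.08) and HDAC6 (-0.23) all lie between them.

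**Figure D3:**
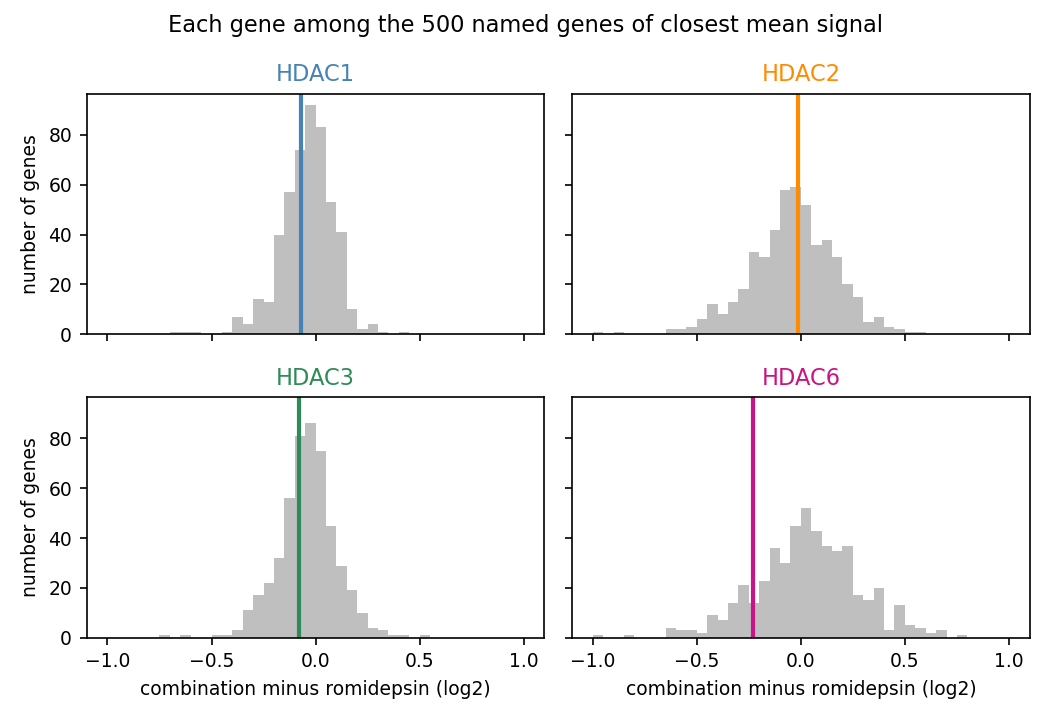
Number of genes (vertical axis) by difference between the arrays (combination minus romidepsin, log2, horizontal axis) among the 500 named genes of closest mean signal to each of the 4 genes, with the gene itself as a coloured line. Values beyond the axis are drawn in the end bins. The spread is wider around HDAC6 (SD 0.25) than around HDAC1 (SD 0.13), and each coloured line lies inside the bulk of its histogram.

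The rest of the deacetylase family gives the frame for these values. All 18 zinc-dependent deacetylases and sirtuins were named, 17 passed the filter, and 0 of the 17 differed by 1.5-fold, against 1.99% of all genes past it. Their median difference was -0.05, against -0.01 over all 10081 genes, with 11 lower, 5 higher and 1 equal. The median turned to 0.01 after quantile normalization, so no direction is given for the family.

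HDAC8, the class I enzyme that works outside the corepressor complexes, was at 7.21 in the combination and 7.30 with romidepsin, a difference of -0.09 beside those of HDAC1 and HDAC3. The 4 class I genes had a median difference of -0.08. The class IIa genes, whose products shuttle between cytoplasm and nucleus and have weak enzyme activity of their own, were dimmer than HDAC1 and HDAC3. HDAC7 read 6.16 and 6.20, HDAC5 5.23 and 5.28 and HDAC4 5.06 and 5.06, combination first. HDAC9 (3.60 and 3.30) lay below the filter on both arrays and differed by 0.30, at a signal where 25.0% of genes differed as much.

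HDAC10, the class IIb relative of HDAC6 and a polyamine deacetylase, read 5.60 in the combination and 5.66 with romidepsin, a difference of -0.05. HDAC11, the only class IV enzyme, read 4.34 and 4.22, a difference of 0.11. Of the family genes past the filter, HDAC6 thus had the largest absolute difference, followed by SIRT4 at -0.20 and SIRT6 at 0.19. After quantile normalization SIRT6 (0.243) came just before HDAC6 (-0.240). Set beside the 500 genes of like signal, HDAC6 did not come first. The share that differed by at least as much was 24.8% for SIRT6 and 32.0% for SIRT7, against 34.0% for HDAC6. SIRT4 was past the filter only with romidepsin (3.77 in the combination and 3.97 with romidepsin).

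The sirtuins use NAD in place of zinc and are not targets of romidepsin. SIRT1, a nuclear sirtuin, was the brightest of them at 7.30 in the combination and 7.27 with romidepsin. SIRT6 read 6.33 and 6.14 and SIRT7 6.21 and 6.04, both of them chromatin-bound sirtuins, with differences of 0.19 and 0.17. SIRT2, a mainly cytoplasmic tubulin deacetylase like HDAC6, read 6.40 and 6.51, a difference of -0.11. Of the mitochondrial sirtuins, SIRT3 read 5.07 and 5.07, SIRT5 5.24 and 5.13, a difference of 0.11, and SIRT4 differed by -0.20. The 7 sirtuins had a median difference of 0.04, with 4 higher and 3 lower.

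**Figure D4:**
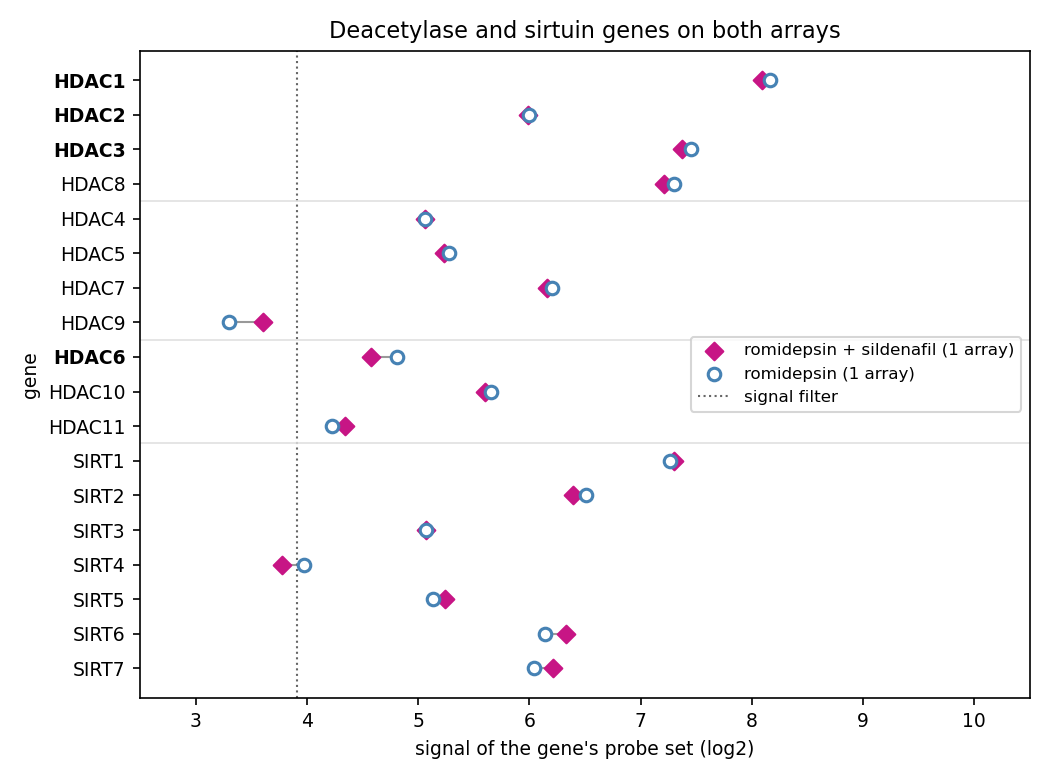
Signal (log2, horizontal axis) of the 18 deacetylase and sirtuin genes (vertical axis), with the combination as filled diamonds and romidepsin as open circles, 1 array each, and the signal filter of 3.91 as a dotted line. The symbols nearly coincide for HDAC1, HDAC2 and HDAC3, lie 0.23 apart for HDAC6, and lie left of the filter for HDAC9.

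HDAC1 and HDAC2 act through shared complexes, whose other subunits were set beside them. Over the SIN3, NuRD, CoREST, NCoR and MiDAC complexes 27 of 46 listed genes were named, all 27 passed the filter, and 0 differed by 1.5-fold, near the 1.99% of all genes past the filter. The median difference was 0.03, with 17 higher and 10 lower, where 52.4% of all genes were lower. The other 19 genes are not analysed here, among them the corepressor NCOR1.

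Of the SIN3 complex 8 of 16 genes were measured, with a median difference of -0.01. The scaffold SIN3A read 8.11 in the combination and 7.99 with romidepsin. SUDS3 and BRMS1, which are subunits of the complex, differed by -0.24 and -0.23, values as large as that of HDAC6. SAP30L, the dimmest of the SIN3 genes, differed by -0.17. The share of genes of like signal that differed by at least as much was 17.0% for SUDS3 and 18.2% for BRMS1. It was 45.6% for SAP30L and 34.0% for HDAC6. The histone chaperones RBBP4 and RBBP7 belong to both SIN3 and NuRD. RBBP4, the brightest of the SIN3 genes, read 8.67 and 8.72, and RBBP7 differed by 0.18.

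Of the NuRD complex 10 of 13 genes were measured, with a median of 0.03, and 7 of the 10 lay within 0.1 of equality, as did 43.1% of all genes past the filter. GATAD2B was the brightest at 9.16 in the combination and 9.13 with romidepsin, and CHD5, a remodelling ATPase, the dimmest at 4.53 and 4.50. The methyl-CpG binding protein MBD2 differed by -0.13, CDK2AP1 by 0.16 and GATAD2A by 0.06. The ATPase CHD4 read 8.45 and 8.42.

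Of the CoREST complex 6 of 9 genes were measured, with a median of 0.03. The lysine demethylase KDM1A, which works beside HDAC1 and HDAC2 in this complex, was the brightest at 8.94 in the combination and 8.89 with romidepsin. HMG20B differed by 0.23, RCOR2, the dimmest, by 0.24 and RCOR1 by -0.03. MiDAC was represented by 2 of 4 genes. TRERF1 differed by -0.42 (6.12 in the combination and 6.53 with romidepsin), more than all but 2.20% of genes of like signal, and the scaffold MIDEAS by -0.19.

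The NCoR complex, the partner of HDAC3, had 3 of 6 genes measured. TBL1X differed by 0.40 (5.56 in the combination and 5.16 with romidepsin). Its homologue TBL1XR1 differed by -0.12 at a higher signal (8.19 and 8.30). The share of genes of like signal that differed by at least as much was 8.8% for TBL1X and 31.8% for TBL1XR1. GPS2, a further subunit, differed by -0.02. Neither TBL1X nor TRERF1 reached 1.5-fold.

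HDAC6 was set beside its substrates, binding partners and the enzymes that oppose or regulate it. Of 18 listed genes 10 were measured, with a median difference of 0.04, 6 higher and 4 lower, and 0 past 1.5-fold, near the background of 1.99%. The alpha-tubulin and HSP90 genes are not analysed here. ATAT1, the acetyltransferase that adds the tubulin mark HDAC6 removes, read 6.63 in the combination and 6.60 with romidepsin. CTTN, which encodes cortactin, differed by 0.12, and VCP, a segregase that binds HDAC6, by -0.07. TPPP, a tubulin polymerisation protein that inhibits HDAC6, differed by 0.33 (5.09 and 4.77), the largest value of the list. The peroxiredoxins PRDX1 and PRDX2 are HDAC6 substrates. PRDX1 was the brightest of the list at 10.57 on both arrays and PRDX2 the dimmest at 4.25 and 4.18, a difference of 0.07.

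The histone acetyltransferases add the groups that HDAC1, HDAC2 and HDAC3 remove. Of 17 listed genes 13 were measured, with a median of 0.00, 7 higher and 6 lower, and 0 past 1.5-fold, again near the background of 1.99%. The coactivators EP300 (8.16 in the combination and 8.25 with romidepsin) and CREBBP (8.67 and 8.71) were among the bright genes. NCOA1 was the brightest at 9.21 and 9.24, and KAT5 the dimmest at 5.73 and 5.62. KAT14 differed by 0.21, HAT1, which acetylates newly made histones, by -0.16, KAT5 by 0.11 and KAT7 by -0.10.

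**Figure D5:**
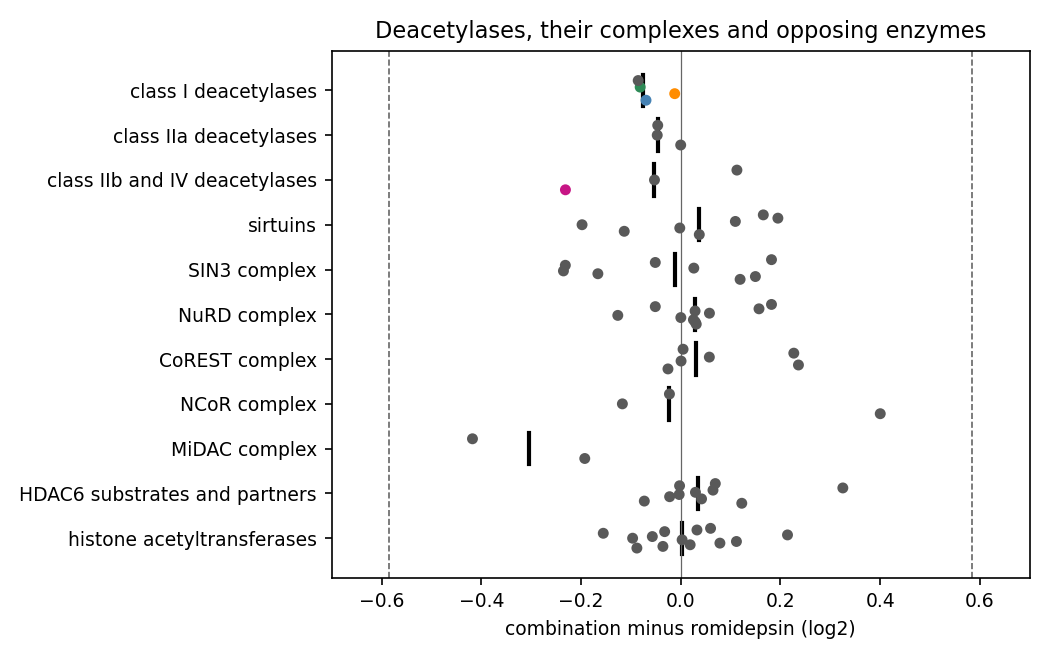
Difference between the arrays (combination minus romidepsin, log2, horizontal axis) of each gene past the filter, by list (vertical axis), with black bars for list medians, dashed lines at 1.5-fold and colours for HDAC1, HDAC2, HDAC3 and HDAC6. All points lie inside the dashed lines, and the outermost are TRERF1 at -0.42 and TBL1X at 0.40.

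The named genes whose signals on the 2 arrays lay nearest to each of the 4 genes, by Euclidean distance, were listed as a description over 2 arrays only. Nearest to HDAC1 were PHACTR4, USP15 and TRA2A, at distances of 0.013 to 0.025. Nearest to HDAC2 were THEM6, FKBP5 and THYN1, and nearest to HDAC3 were CD22, MED4 and ELOF1. Nearest to HDAC6 were C16orf54, CREB3L3 and PDE9A, at distances of 0.019 to 0.023. Like differences follow from choosing genes in this way.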

How the data were processed

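Total RNA from 1 culture per group was converted to biotin-labelled cDNA by whole-transcript amplification, per the labels' protocols, and read on an array. The authors deposited 1 column of log2 signals per array for 53617 probe sets. The base was taken as 2 because the maximum, 13.05, exceeds the natural log of a 16-bit ceiling (11.1). How the authors corrected background, summarised probes and normalized is not stated in the labels. Sorted, the columns differed nowhere by more than 0.15, so a change shared by most transcripts would not be seen. The platform annotation named 16098 probe sets with 1 symbol, 0 with several, and left 37519 unnamed, and 0 symbols needed updating. For the 779 genes with more than 1 probe set the brightest stood for the gene.

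The 4 genes, the gene lists and the rules were chosen with earlier results of these data known. The genes named are the 4, the whole deacetylase family, and of each other list the brightest, the dimmest and up to 4 with the largest absolute difference past the filter, with a few further members added for their role. No test was run. The functions were tested on simulated data. Python 3.11.15, numpy 2.4.6, pandas 2.3.3 and statsmodels 0.14.6 were used.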

Additional observations from a re-analysis of the deposited data

How the results depend on the processing

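The number of arrays limits every value, and without replicates a difference between cultures cannot be told apart from sildenafil. No paired analysis was possible because each group holds 1 array and no test was run. Alternatives were 3 scalings, other filters, other handling of probe sets and other fold thresholds. All 20 alternative differences of the 4 genes lay within 0.1 of the values given. They ran from -0.10 to -0.02 for HDAC1, -0.04 to 0.03 for HDAC2, -0.11 to -0.03 for HDAC3 and -0.26 to -0.23 for HDAC6. HDAC1, HDAC3 and HDAC6 have 1 named probe set each, so for them the probe set alternatives repeat the value given by construction. The margin of 0.1 is also larger than the differences of HDAC1, HDAC2 and HDAC3 themselves. The sign of HDAC2 turned in 4 of its 5 alternatives. The medians of the deacetylase family, the SIN3 and NCoR genes and the acetyltransferases, all near 0, changed sign under 1 alternative each. For the SIN3, NCoR and acetyltransferase lists, leaving out the filter and averaging probe sets could change nothing. All their named genes passed the filter and have 1 probe set each. The only scalings run for these lists were median centring and lowess centring, and the sign turned under 1 of them. The family held 0 genes past the fold threshold under all 3 alternatives for that count, a lower and a higher threshold and no filter. A higher threshold could not raise a count of 0, and leaving out the filter added only HDAC9, at 0.30. No scaling was tried for this count.

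The percentiles moved with the genes ranked. Among genes past the filter, HDAC2 stood above 54.7% in the combination and 54.4% with romidepsin, HDAC3 above 81.1% and 81.8%, and HDAC6 above 22.2% and 29.4%. Among all probe sets, HDAC2 stood above 79.7% and 79.4% and HDAC6 above 62.1% and 65.8%. With probe sets averaged, HDAC2 stood above 44.3% and 45.3%. The filter removes dim genes, and averaging adds the dim HDAC2 probe set, so both lower these percentiles by construction. For all probe sets the cause was not tested.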

Other observations

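HDAC4 had exactly the same deposited signal on both arrays, 5.06314, as did 221 of the 53617 probe sets, 80 of them named. Its second named probe set read 4.01 in the combination and 3.79 with romidepsin, so the difference of 0.00 rests on 1 probe set.

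The 2 probe sets named HDAC2 differed by more than 3 on the log2 scale on each array. In the order of probe set identifiers, 94.4% of 11536 named probe sets had more than 5 of their 10 nearest named neighbours on their own chromosome and strand, by RefSeq gene annotation. The bright HDAC2 probe set shared chromosome and strand with 9 of 10 neighbours and the dim one with 0 of 10. HDAC1 and HDAC3 did so with 10 of 10 and HDAC6 with 9 of 10. The array annotation gives the dim HDAC2 probe set a coding transcript record and the bright one a non-coding record. The strand that each probe set reads is not given in the sources used here.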
